A study of Mus musculus with 4 samples.

Results

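Slc18b1, Sh3bgrl, Naa50, Zc3hav1l and Tsen15 are 5 genes without an established part in DNA replication or mitosis, apart from a cohesion role of Naa50, whose messenger RNA was lower in skin cells of mouse pups a day after doxycycline induced the microRNA miR-203. They were chosen by the difference between induced and control arrays itself, being among the genes with the most negative test statistics, at ranks 4, 10, 7, 3 and 15 of the 13489 genes measured above a low-signal limit. Their lower values in the induced arrays are therefore a description and carry no test. All probe sets annotated to exactly one of these genes were taken, which gave 9 probe sets for 5 genes, of 34945 single-gene probe sets for 18193 genes on the array. All 9 lay above the low-signal limit, a mean log2 value of 4.17 over the arrays. Slc18b1 did so only through its controls, its mean being 4.15 in the induced arrays and 5.75 in the controls. A probe set is a group of short probes on the array that report on one stretch of a transcript.

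miR-203 is a microRNA of stratified epithelia, found mainly in suprabasal cells that have left the cell cycle and little in basal cells. A microRNA pairs through its seed, bases 2 to 8, with sites in messenger RNAs, which lowers their stability or translation. The labels do not say which arm of the hairpin was meant, so both mature sequences of mouse miR-203 are shown, from RefSeq on build GRCm38.p6, with the seed in capitals.
miR-203-3p (chr12:112130927-112130948, plus strand): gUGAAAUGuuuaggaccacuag
miR-203-5p (chr12:112130889-112130910, plus strand): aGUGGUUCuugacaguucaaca
Whether the 5 transcripts hold seed matches was not examined, since transcript sequences were not used here.

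The induced pups carried K14-rtTA, TRE-miR-203 and K14-H2BGFP. Here the keratin promoter K14, active in basal keratinocytes, drives both the doxycycline-dependent activator rtTA and a green fluorescent histone. Their control littermates, labelled wild type, carried TRE-miR-203 and K14-H2BGFP without the activator. Both groups received doxycycline, were of FVB background and were sampled at postnatal day 4, 24 h after the injection. Cells sorted from epidermis of the skin, with a gate that the labels do not state, gave total RNA, and 2 induced and 2 control samples, labelled as biological replicates, were each hybridised to an Affymetrix array. The small number of arrays limits the precision of every value, and presence of the activator and induction of miR-203 cannot be told apart. In such bulk samples fewer cells of a type and less RNA per cell cannot be told apart either.

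Values are log2 signals after RMA, and array medians ran from 4.76 to 4.78 in the induced arrays and from 4.74 to 4.79 in the controls. Induced replicate 1 stood apart in sex-linked transcripts, with Xist, the RNA of the inactive X chromosome, at 5.86 there and 11.19 in induced replicate 2, against 10.57 and 10.80 in the controls. The Y-linked gene Eif2s3y had 9.38 in induced replicate 1 and 2.72 in induced replicate 2, against 2.82 and 2.52 in the controls, so that the arrays of the induced group differ in sex-linked transcripts from each other, and induced replicate 1 from both controls. Keratinocyte markers were bright on every array, and markers of other cell types gave signal too. The 6 melanocyte markers averaged 8.72 and 9.24 in the induced arrays, against 8.84 and 8.885 in the controls. The 3 measured dermal fibroblast markers averaged 5.69 and 6.64 in the induced arrays, against 6.16 and 6.35 in the controls. For 6 Langerhans and other immune markers the means were 7.45 and 7.17, against 7.34 and 7.12. The 7 basal markers had mean log2 values of 10.91 and 10.91 in the induced arrays, against 11.13 and 11.15 in the controls, 6 of 7 being lower without overlap. The 5 measured suprabasal markers averaged 13.99 and 13.93 in the induced arrays, against 13.99 and 13.998 in the controls. Hair follicle markers averaged 10.29 and 10.62 in the induced arrays, against 9.52 and 9.91 in the controls, 6 of 8 being higher without overlap. The red cell marker Slc4a1 had 6.04 and 5.88 in the induced arrays, against 5.21 and 5.29 in the controls, while Alas2 and Hba-a1, the other red cell genes examined, lay under the background edge given below on all arrays. All 21 DNA replication genes examined were on average lower in the induced arrays, their mean log2 value being 7.80 and 8.17 there, against 8.56 and 8.37 in the controls. Each marker was read from its brightest kept probe set. Of all 13489 kept genes, 19.3% were lower and 20.1% higher without overlap, and 50.4% had a lower induced than control mean. The median difference was -0.17 for the basal, 0.81 for the hair follicle and -0.44 for the replication genes. No marker passed the limma test given below. Cdc45 and Gins3 of the replication genes each had 1 of 2 kept probe sets with the opposite sign. The basal marker Trp63, counted as lower, had 2 of 4. The part of these shifts in the values of the 5 genes was not tested.

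As a measure of array background, 83 probe sets of 74 odorant, vomeronasal and bitter taste receptor genes were used, which skin is taken not to express. Their median was 3.32 and 3.31 in the induced arrays, against 3.27 and 3.33 in the controls. Their 95th percentile, used here as the upper edge of background, was 4.94 and 4.86 in the induced arrays and 4.87 and 4.96 in the controls. Of the 9 member probe sets, 8 exceeded that edge on all 4 arrays, and the exception was Slc18b1.

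In all 9 probe sets both induced arrays lay below both controls, and 8 of the 9 gaps between the groups were wider than either gap between replicates. Over all 27022 probe sets kept, 18.2% were lower without overlap, and 0.666% were so by 1.5-fold or more. Nothing is read from the members' count beside these shares, because the same comparison chose them. limma called 0 probe sets at an adjusted p under 0.05, where 1267 lower (4.69%) and 1461 higher (5.41%) had an unadjusted p under 0.05, and the lowest adjusted p was 0.158. No member therefore passed that test, while the same test with a variance prior that follows the level and is robust called 126 probe sets, 6 of them member probe sets, which the choice of members on this contrast makes no independent support.

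**Figure D1:**
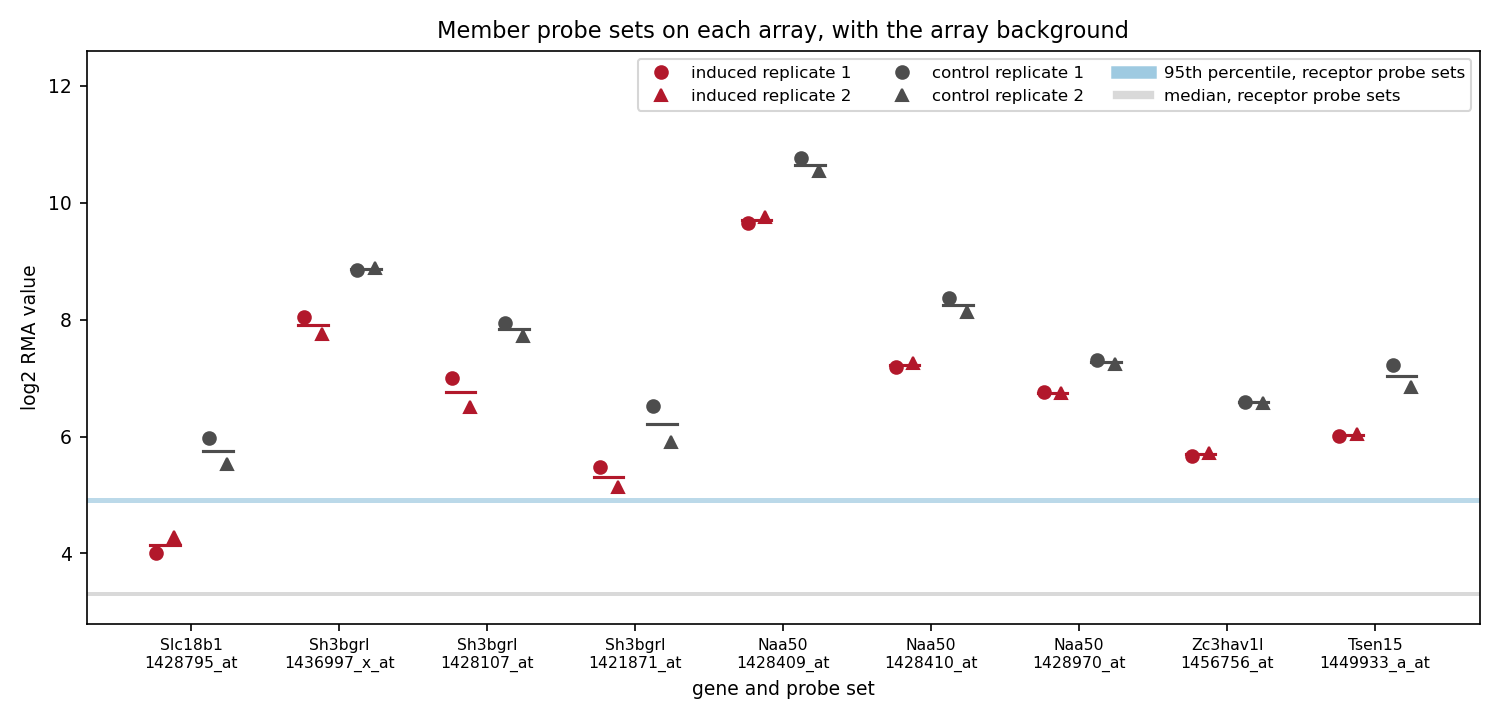
Log2 RMA value (vertical axis) of the 9 probe sets of the 5 genes on each array, with induced arrays in red left of control arrays in grey and group means as bars. Blue and grey bands give the range over arrays of the receptor probe sets' 95th percentile and median. Only Slc18b1 lies under the blue band in the induced arrays, and no probe set has overlapping groups.

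Slc18b1 encodes a transporter of the SLC18 family that loads polyamines into vesicles. Its single probe set, 1428795_at, had values of 4.01 and 4.28 in the induced arrays, against 5.98 and 5.53 in the controls. The induced values stood 0.93 and 0.58 below the upper edge of background on their arrays, where 36.5% and 42.2% of all probe sets were dimmer. The control values stood 1.11 and 0.57 above it. The group means differed by -1.61 ± 0.18 (SE, 2 arrays a group). Because the induced signal was within background, only a bound on the size holds. With the induced arrays set at their upper edge of background, the group means put Slc18b1 at least 1.80-fold lower in the induced arrays. That value carries no error and rests on the mean of 2 control arrays. Read from control replicate 2 alone, at 5.53, the bound would be smaller.

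Naa50 encodes the catalytic subunit of an N-terminal acetyltransferase that binds the NatA complex, and in fly and human cells it is needed for the cohesion of sister chromatids. Its brightest probe set, 1428409_at, had 9.65 and 9.75 in the induced arrays, against 10.76 and 10.54 in the controls, a difference of -0.95 ± 0.12 (1.93-fold lower). Probe set 1428410_at had 7.18 and 7.26 in the induced arrays, against 8.37 and 8.14 in the controls, a difference of -1.03 ± 0.12 (2.05-fold lower). These probe sets moved together, the gap between them being 2.47 and 2.49 in the induced arrays and 2.38 and 2.40 in the controls. The remaining Naa50 probe set, 1428970_at, had 6.76 and 6.74 in the induced arrays, against 7.31 and 7.25 in the controls, a smaller difference of -0.53 ± 0.10 (1.45-fold lower). On the log2 scale 1428410_at exceeded 1428970_at by 0.42 and 0.52 in the induced arrays, against 1.07 and 0.89 in the controls, so that the size of the Naa50 difference depends on the probe set read. All 3 were at least 1.81 above the upper edge of background on every array.

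Tsen15 encodes a structural subunit of the tRNA splicing endonuclease, which removes introns from precursor tRNAs. Its probe set, 1449933_a_at, had 6.003 and 6.05 in the induced arrays, against 7.22 and 6.85 in the controls. The difference was -1.01 ± 0.14 (2.01-fold lower). The induced arrays were 0.05 apart and the controls 0.37 apart, so that most of the spread lay in the controls. The induced values were 1.06 and 1.19 above the upper edge of background, against 2.35 and 1.89 for the control values.

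Zc3hav1l encodes a relative of the zinc finger antiviral protein ZAP, the product of Zc3hav1. Its probe set, 1456756_at, had 5.67 and 5.72 in the induced arrays, against 6.59 and 6.58 in the controls. The difference was -0.89 ± 0.09 (1.85-fold lower). Replicates were close in both groups, and only 4.22% of the kept probe sets had a smaller standard deviation within groups. A small spread makes the test statistic that chose the members more extreme, so nothing is read from this closeness. The induced values were 0.73 and 0.85 above the upper edge of background, against 1.72 and 1.62 for the control values.

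Sh3bgrl, a gene of the X chromosome, encodes a small protein with a thioredoxin-like fold that belongs to the SH3-binding glutamate-rich family. Probe set 1436997_x_at had 8.05 and 7.76 in the induced arrays, against 8.85 and 8.88 in the controls, a difference of -0.96 ± 0.13 (1.95-fold lower). The x in its name marks a set in which some probes can also match other transcripts, so its signal need not come from Sh3bgrl alone. Probe set 1428107_at had 7.003 and 6.50 in the induced arrays, against 7.95 and 7.72 in the controls, a difference of -1.08 ± 0.19 (2.11-fold lower). Probe set 1421871_at had 5.47 and 5.14 in the induced arrays, against 6.52 and 5.91 in the controls, a difference of -0.91 ± 0.22 (1.88-fold lower), which was -0.60 without control replicate 1. It was the 1 probe set whose groups were separated by less, 0.43, than its control replicates were, 0.61.

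The 3 Sh3bgrl differences spanned 0.17 and the 3 Naa50 differences 0.50. The standard error of a difference between 2 probe sets, if they were independent, would be 0.26 and 0.16. Probe sets of a gene were read from the same arrays and are not independent, so no agreement is read from these values. In all 3 Sh3bgrl probe sets, induced replicate 2 was the lower induced array. Without induced replicate 1, the array with little Xist, the difference of 1436997_x_at was -1.11 and that of 1428107_at was -1.33. Among 386 kept genes of the X chromosome the median difference was -0.03, and 25.9% were lower without overlap, against 19.1% of 13032 autosomal genes. Against the control mean, the median of these X-linked genes was -0.032 in induced replicate 1 and -0.026 in induced replicate 2.

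The order of the replicates was not shared by all members. Induced replicate 1 was below induced replicate 2 in 5 of the 9 probe sets, those of Zc3hav1l, Tsen15, the brighter pair of Naa50 and Slc18b1, whose induced values lie within background and have no order. Control replicate 2 was below control replicate 1 in 8 of 9, 1436997_x_at being the exception. Of the 21 DNA replication genes, 21 had induced replicate 1 below induced replicate 2 and 19 had control replicate 2 below control replicate 1.

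**Figure D2:**
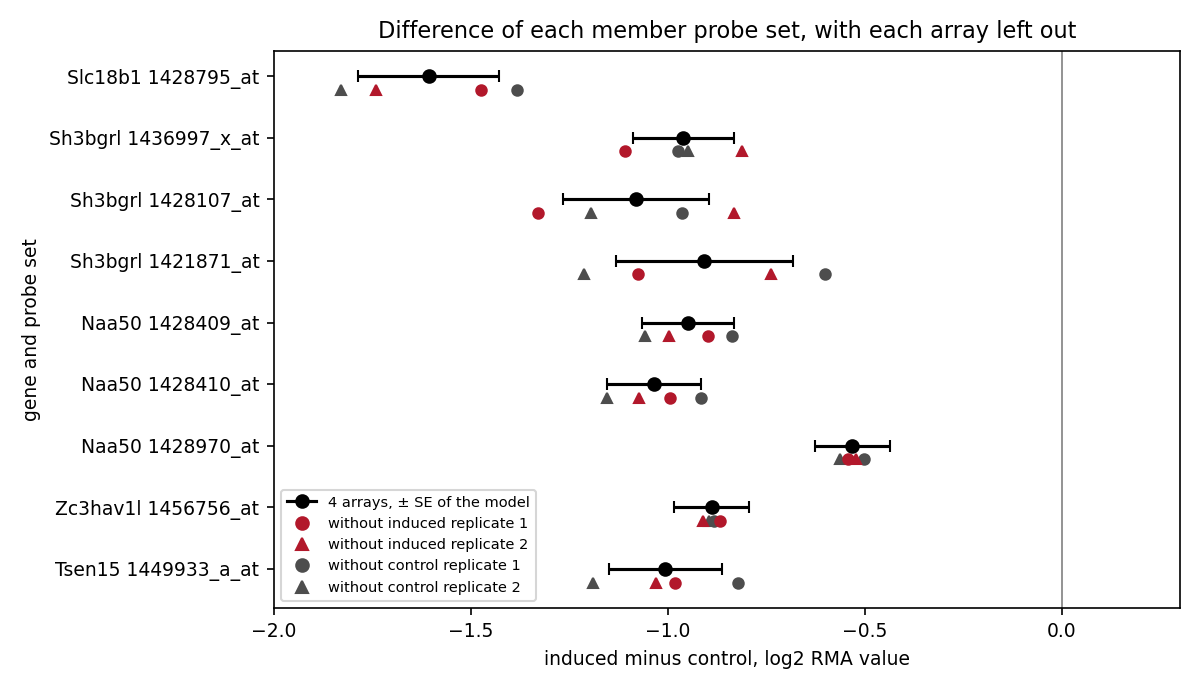
Induced minus control difference in log2 RMA value (horizontal axis) of the 9 probe sets, in black with the standard error of the model over 4 arrays. Coloured points give the difference with each array left out, and all of them lie below 0, from -1.83 for Slc18b1 to -0.50 for Naa50 probe set 1428970_at. Their sign was fixed beforehand, since both induced arrays lay below both controls in each probe set.

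The complexes and families around each gene were then examined without the gene itself, each gene being read from its brightest kept probe set. Over all 13489 kept genes 50.4% had a lower induced than control mean, 19.3% were lower without overlap and 20.1% higher, and 0 passed limma at an adjusted p under 0.05. None of the 59 other list genes measured passed either. Of the genes named from the lists, Naa30, Naa15, Nipbl, Rtcb and Zc3hav1 each had 1 kept probe set with the opposite sign to the one read.

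Among the other N-terminal acetyltransferase genes, 8 of 10 measured had a lower induced than control mean and 5 were lower without overlap, with a median difference of -0.06. Naa30, the catalytic subunit of NatC, had 7.65 and 7.61 in the induced arrays, against 7.95 and 8.07 in the controls, a difference of -0.37 ± 0.10 (limma adjusted p = 0.330). Naa15, the scaffold of NatA to which Naa50 binds, had 10.34 and 10.44 in the induced arrays, against 10.38 and 10.37 in the controls, a difference of 0.01 ± 0.10. Naa10, the catalytic subunit of NatA, was not analysed here.

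Cohesin genes were listed because of the known role of Naa50 in cohesion. Of 13 measured, 9 had a lower induced than control mean, 3 were lower and 3 higher without overlap, and the median difference was -0.05. Esco2, an acetyltransferase that establishes cohesion in S phase, had 5.82 and 6.52 in the induced arrays, against 6.72 and 6.56 in the controls, a difference of -0.46 ± 0.23 (limma adjusted p = 0.579). Smc3, a core cohesin subunit, differed by -0.32 ± 0.12 (limma adjusted p = 0.456). The cohesin loader Nipbl differed by 0.14 ± 0.10.

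Of the genes that work with Tsen15, 8 were measured, of which 0 were lower without overlap, and their median difference was -0.03. The catalytic subunit Tsen34 had 10.03 and 10.18 in the induced arrays, against 10.18 and 10.04 in the controls, a difference of -0.01 ± 0.11. The scaffold subunit Tsen54 differed by -0.01 ± 0.11. Clp1, an RNA kinase bound to the endonuclease, was the 1 gene of the list with higher values without overlap, 7.64 and 7.65 in the induced arrays against 7.55 and 7.37 in the controls (0.19 ± 0.11). The tRNA ligase Rtcb differed by 0.01 ± 0.10.

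Among the 8 measured relatives and partners of Zc3hav1l, 1 was lower without overlap and the median difference was 0.04. Zc3hav1 itself had 9.13 and 9.21 in the induced arrays, against 9.02 and 9.21 in the controls, a difference of 0.06 ± 0.11. Trim25, a ubiquitin ligase that assists ZAP, differed by 0.09 ± 0.12, and Parp12, another zinc finger protein of this group, by -0.16 ± 0.11.

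The SH3-binding glutamate-rich family was read together with glutaredoxins and thioredoxins, of which 7 were measured, with 2 lower and 2 higher without overlap and a median difference of 0.05. Sh3bgrl2 had 10.09 and 10.07 in the induced arrays, against 10.28 and 10.27 in the controls, a difference of -0.19 ± 0.09 (limma adjusted p = 0.571). Sh3bgrl3 had 11.47 and 11.55 in the induced arrays, against 11.45 and 11.45 in the controls, a difference of 0.06 ± 0.10. Sh3bgr stayed below the low-signal limit.

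Of the polyamine genes, 13 were measured besides Slc18b1, 0 lower and 6 higher without overlap, with a median difference of 0.06. Atp13a2, a lysosomal polyamine exporter, had 8.59 and 8.74 in the induced arrays, against 8.40 and 8.42 in the controls, a difference of 0.26 ± 0.10 (limma adjusted p = 0.492). Spermine oxidase, Smox, differed by 0.20 ± 0.11, and ornithine decarboxylase, Odc1, the enzyme that starts polyamine synthesis, by 0.11 ± 0.19 with overlapping groups. The vesicular monoamine and acetylcholine transporters Slc18a1, Slc18a2 and Slc18a3 were all below the low-signal limit.

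**Figure D3:**
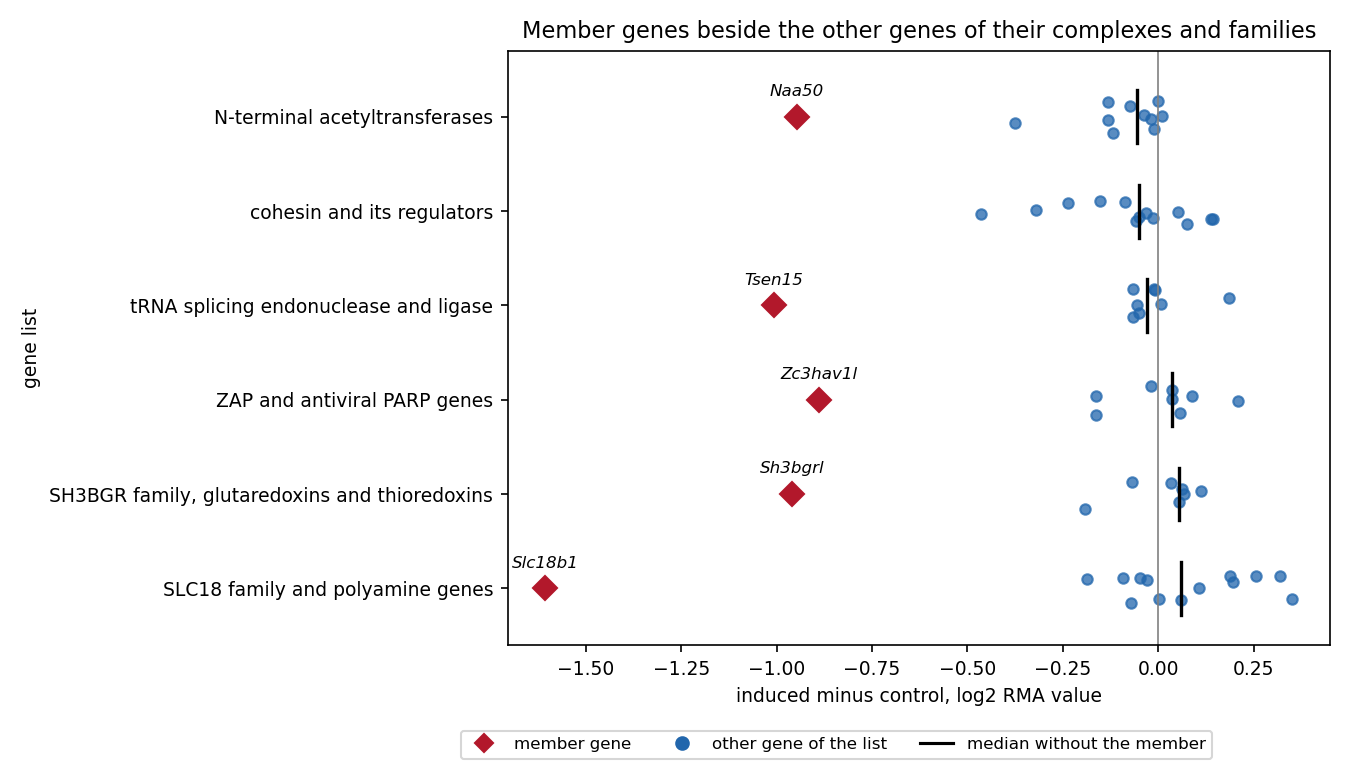
Induced minus control difference in log2 RMA value (horizontal axis) of each measured gene, by list (vertical axis, points shifted up or down for legibility). Red diamonds are the 5 chosen genes, blue circles the other genes and black bars the medians without the chosen gene, which run from -0.06 to 0.06.

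Position along the chromosome was read from the order of genes in RefSeq. Zc3hav1, which lies next to Zc3hav1l on chromosome 6, gave the difference of 0.06 stated above. Atp6v1a, a proton pump subunit gene next to Naa50 on chromosome 16, had 10.50 and 10.55 in the induced arrays, against 10.76 and 10.74 in the controls, a difference of -0.23 ± 0.09 (limma adjusted p = 0.501). Usf3, on the other side of Naa50, differed by -0.07 ± 0.12. Vnn3, next to Slc18b1 on chromosome 10, differed by -0.19 ± 0.12, and Tbpl1, the nearest kept gene on its other side, by -0.09 ± 0.09. Hmgn5, the nearest kept gene on one side of Sh3bgrl, differed by -0.10 ± 0.09. Pou3f4, on the other side of Sh3bgrl, and Colgalt2, next to Tsen15, were under the upper edge of background on all 4 arrays, and no difference is given. The nearest kept genes on the remaining sides, D630045J12Rik for Zc3hav1l and 1700025G04Rik for Tsen15, differed by 0.06 ± 0.10 and -0.18 ± 0.14. Since the members were chosen for the size of their difference, nothing is read from the smaller differences of their neighbours.

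Likeness across the 4 arrays was measured, for the brightest probe set of each gene, as the root mean square distance between log2 values centred on their 4-array mean, against 12791 named genes. With 4 arrays and a rule that already asked for low induced values, close matches are a description. Distances to a gene whose induced signal was under the upper edge of background rest partly on background signal and give no exact likeness. That holds for Prkar2b, a regulatory subunit of protein kinase A, which was listed nearest to both Tsen15 and Naa50 with 4.43 and 4.43 in the induced arrays, against 5.58 and 5.204 in the controls. Next listed for Tsen15 was Dennd6a, at a distance of 0.05, with 6.18 and 6.23 in the induced arrays, against 7.41 and 6.91 in the controls. Next listed for Naa50 was Adk, adenosine kinase, at 0.07, and its closest fellow member was Tsen15, at 0.06. Zc3hav1l was nearest to Cav1, the caveolin gene, at 0.04, and then to Adk, at 0.06.

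Sh3bgrl was nearest to Scin, which encodes an actin-severing protein, at 0.11, then to Tesk2, whose induced values were under the upper edge of background, and to Col17a1, a hemidesmosomal collagen gene, at 0.13. Scin had 5.94 and 5.63 in the induced arrays, against 6.70 and 6.49 in the controls, with induced replicate 2 again the lower. For Slc18b1, whose own induced values were within background, no likeness is read. The genes listed nearest to it were Pola1, which encodes the catalytic subunit of DNA polymerase alpha, Hells, a chromatin remodeller of dividing cells, and Atf2, a transcription factor.

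**Figure D4:**
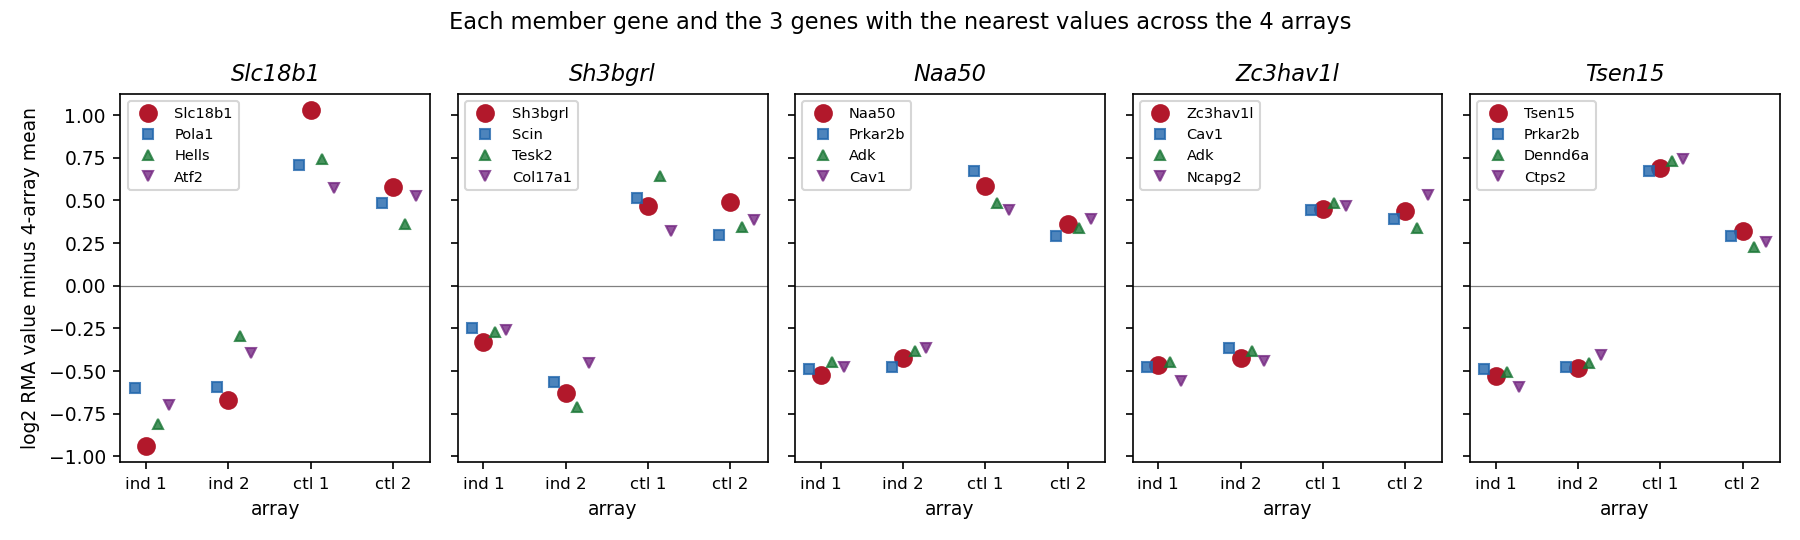
Log2 RMA value minus its 4-array mean (vertical axis) on the 2 induced and 2 control arrays (horizontal axis) for each of the 5 genes, in red, and the 3 genes with the nearest values. Signals of Slc18b1, Prkar2b and Tesk2 in the induced arrays were under the upper edge of background. Cav1 lies at a distance of 0.04 from Zc3hav1l and Dennd6a at 0.05 from Tsen15.

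Promoter windows of 250 bases before to 50 after the annotated start were available for all 5 genes, from RefSeq on GRCm38.p6 of strain C57BL/6J, while the animals were FVB. The windows were searched on both strands for letters of common promoter elements, which were chosen after the windows had been read. The E2F-type letters GGCGGGAA, a site form known from promoters of replication genes, stood in the windows of Naa50 and Tsen15, against 2.19% of all 32851 windows. That share includes windows of genes not measured here. Among the other kept genes with a window the letters were more frequent, 478 holding them and 10337 not. The 2 matches are shown with the matched letters in capitals, the Naa50 match starting 193 bases before the annotated start and the Tsen15 match at base 12 after it.
Naa50 (chr16:44139589-44139614, plus strand): ggggtggggGGCGGGAAaggctgatc
Tsen15 (chr1:152386655-152386680, minus strand): agtgtgcgcGGCGGGAAgcggaactc
GC box letters, GGGCGG, stood in the windows of Slc18b1, Naa50 and Tsen15, against 35.7% of all windows, and in Naa50 one of them overlaps the E2F-type match by all but its first base. The ETS-type letters CCGGAAG stood in that of Sh3bgrl, against 8.86% of all windows. Neither CCAAT nor TATAAA stood in any window of the 5 genes, against 37.4% and 13.6% of all windows. Zc3hav1l held none of the letters searched. A match is a description of the window and no evidence of a bound factor.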

How the data were processed

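The authors deposited 1 log2 value per probe set and array for 45101 probe sets. RMA is the tool the submitters' processing notes name; no version or chip definition was found in the labels. It corrects background, quantile normalizes between arrays and summarises probes, which hides any global shift in RNA content. Removing 64 control probe sets and those whose 4-array mean was under the 40th percentile (a log2 value of 4.17, the low-signal limit) left 27022. Single-gene probe sets were named through the platform annotation and RefSeq. A gene was read from its brightest kept probe set.

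limma 3.58.1 in R 4.3.3 (lmFit, eBayes, Benjamini-Hochberg adjusted over all kept probe sets, two-sided) compared the groups, with 2 residual degrees of freedom, and gave the standard errors. It was run on data simulated from its own fitted variance prior, which cannot show how well that model holds for these arrays. The genes named are the 5 members, list and marker genes, the 3 genes nearest in pattern and the nearest measured neighbours. The members and lists were chosen with earlier results of these data known. The labels tie replicate numbers to no litter, so no block was used. Alternatives were other filters, normalizations, variance priors and thresholds, the replicate block, and leaving out each array.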

Additional observations from a re-analysis of the deposited data

How the results depend on the processing

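All 9 member probe sets stayed lower in the induced arrays in every one of the 63 differences recomputed. These used values quantile normalized again or centred on array medians, the replicate block, or left out any array. Leaving out an array could not change a sign, since both induced arrays lay below both controls in every member probe set. The replicate block leaves the difference itself unchanged. These signs are therefore no independent support. The number above background on all arrays was 8 with either background level. limma called 0 probe sets with no filter, a filter at the 60th percentile, both normalizations, an adjusted p under 0.1 and the replicate block. It called 126 with a variance prior that follows the level and is robust, 6 of which are member probe sets. With an array left out it called between 0 and 6, and the 6 without induced replicate 2 hold 0 member probe sets. Same-numbered arrays deviated from their group means with a correlation of -0.1001 over probe sets, and a crossed pairing, added after seeing the data, called 0. The limma calls with an array left out assume that the lone array varies like the other group. The median differences of the lists without members need no such assumption. With an array left out they ran from -0.083 to -0.042 (acetyltransferases), -0.12 to 0.02 (cohesin) and -0.088 to 0.047 (tRNA splicing). For the remaining lists they ran from -0.021 to 0.12 (ZAP), -0.016 to 0.073 (SH3BGR) and 0.0070 to 0.11 (polyamine). The polyamine median was -0.014 with no filter, which adds dim genes, and 0.084 with the filter at the 60th percentile, so no direction is read from these medians.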

Other observations

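The E2F-type letters found in the Naa50 and Tsen15 windows were looked up in all other kept genes with a promoter window. Of 478 such genes holding GGCGGGAA on either strand, 268 had a lower induced than control mean and 114 (23.8%) were lower without overlap, with a median difference of -0.02, and 4 belong to the DNA replication genes examined. Of 10337 genes without the letters, 5160 had a lower induced than control mean and 1981 (19.2%) were lower without overlap. Their median difference was 0.00, and 12 belong to the DNA replication genes examined. This comparison was chosen after the promoter windows had been read and was not tested.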
